A study of Mus musculus with 12 samples.

Results

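Leukocyte marker genes were described in tumor cells purified from MC38 tumors, where such transcripts are commonly read as RNA of host cells that remain after purification. The genes were chosen by symbol: the rows of the count table whose Ensembl identifier carries one of the 10 symbols in GENCODE M21, which gave 10 of the 33219 features. Of them 4 are pan-leukocyte genes (Ptprc, Cd52, Cd53 and Plek) and 6 are myeloid genes (Itgam, Csf1r, Lyz2, Adgre1, Cd68 and Tyrobp). MC38 is a colon adenocarcinoma line of C57BL/6 mice. WT cells or cells homozygous for a RAC1 A159V knock-in, a gain-of-function mutation of the small GTPase RAC1, were grown subcutaneously in C57BL/6 mice of 6 to 8 weeks. The paper presents 1 A159V clone unless it states otherwise, so the genotype and the clone cannot be told apart. Mice received 100 μg of anti-PD1, an antibody that blocks a T cell inhibitory receptor, or an IgG isotype control every 3 days from day 3, and tumors were taken on day 13. Tumor cells were enriched with a magnetic kit that depletes other cells, and polyadenylated RNA was sequenced. With 3 mice in each, WT IgG and WT anti-PD1 stood beside A159V IgG and A159V anti-PD1, which made 4 groups and 12 samples in all. The comparisons ask how marker RNA in the purified cells varied with genotype and with treatment.

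Leukocytes carry surface proteins that other cells lack, and myeloid cells add a machinery for adhesion, engulfment and digestion. Ptprc encodes CD45, the tyrosine phosphatase on all nucleated blood cells. Itgam encodes CD11b, the alpha chain of an adhesion and complement receptor of monocytes, macrophages, granulocytes and natural killer cells. Csf1r is the receptor that macrophages need for survival, and Adgre1 encodes F4/80, the classic surface marker of mouse macrophages. Cd68 and Lyz2 encode proteins of the lysosome and of secretory granules that macrophages make in large amounts, and Tyrobp encodes DAP12, the adaptor that passes on signals of activating receptors in myeloid and natural killer cells. By GENCODE M21 (GRCm38) the genes lie on chromosomes 1 (Ptprc), 3 (Cd53), 4 (Cd52), 7 (Itgam and Tyrobp), 10 (Lyz2), 11 (Plek and Cd68), 17 (Adgre1) and 18 (Csf1r). Such genes are read in a tumor as markers of infiltrating cells, on the condition that the tumor cells themselves do not transcribe them.

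Total counts ranged from 14053582 to 21949942 per sample. At these depths a floor of 3 counts corresponded to 0.137 to 0.213 CPM, counts scaled to the library total, and this floor covers counting error only. Together the 10 genes took between 508 and 1237 counts of a library, so most values below rest on few reads. Of the 10 members 8 passed the filter on low counts and were tested, and Csf1r and Adgre1 did not. With only 2 groups in a fit, Ptprc, Itgam, Cd52 and Tyrobp passed this filter only where WT anti-PD1 was included. The knock-in alters a codon, which counts per gene cannot show, so the counts do not check the genotype labels.

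Taken as a measure of host myeloid RNA, the genes differed widely in level, and the cells their RNA came from were not tested. The macrophage genes Csf1r and Adgre1 stayed at or near the floor in all 12 samples, with at most 9 and 2 counts. Of the 14 neutrophil genes listed for comparison, Ly6g was at 0 in all libraries and 6, Ly6g included, did not exceed 3 counts in any. By contrast, Cd68 and Lyz2 lay well above the floor in every library, including A159V libraries with 0 to 5 counts of Ptprc. The 10 genes are therefore treated here as marker genes, each by its own values, and not as one population. In these bulk samples fewer cells of a type and less RNA per cell cannot be told apart.

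The pan-leukocyte gene Ptprc had the widest range of the tested members in fold between group means. Read counts were 17, 3 and 56 in WT IgG replicates 1, 2 and 4, and 174, 212 and 134 in WT anti-PD1 replicates 1, 2 and 3. In A159V cells they were 0, 2 and 4 under IgG (replicates 1, 2 and 5) and 1, 1 and 5 under anti-PD1. Every A159V library thus lay near the floor, every WT anti-PD1 library lay above every other library, and WT IgG was spread between them. TMM-scaled levels averaged 1.31 ± 1.35 CPM (SD, n = 3) in WT cells under IgG, 10.2 ± 3.54 in WT cells under anti-PD1, 0.103 ± 0.106 in A159V cells under IgG and 0.129 ± 0.130 in A159V cells under anti-PD1.

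Cd52, a short glycoprotein anchored to the surface of lymphocytes and monocytes, followed the same order of groups. Its counts were 16, 4 and 12 in WT cells under IgG, 37, 43 and 56 in WT cells under anti-PD1, 3, 1 and 1 in A159V cells under IgG and 1, 3 and 2 in A159V cells under anti-PD1. No value of the WT groups overlapped with A159V after scaling, and the means were 0.574 ± 0.316, 2.64 ± 0.638, 0.0866 ± 0.0624 and 0.108 ± 0.0525 CPM in that order. Cd52 shares 172 bp of exon with the antisense gene Crybg2, which had 853 counts over all samples, and the strand setting of the counting was not given in the sources used here.

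Cd53, a tetraspanin of leukocytes, and Plek, which encodes pleckstrin, a substrate of protein kinase C in platelets and leukocytes, departed from this order. Cd53 had 6, 3 and 15 counts in WT cells under IgG, 38, 38 and 55 in WT cells under anti-PD1, 18, 33 and 7 in A159V cells under IgG and 21, 18 and 13 in A159V cells under anti-PD1. Plek had 12, 19 and 13 counts in WT cells under IgG, 73, 70 and 52 in WT cells under anti-PD1, 44, 45 and 25 in A159V cells under IgG and 27, 27 and 23 in A159V cells under anti-PD1. Both genes were therefore detected above the floor in all A159V libraries, where Ptprc was close to it. Plek averaged 0.823 ± 0.293 CPM in WT cells under IgG, 3.79 ± 0.899 in WT cells under anti-PD1, 1.94 ± 0.535 in A159V cells under IgG and 1.40 ± 0.102 in A159V cells under anti-PD1, and the A159V libraries lay wholly between the WT groups. Cd53 averaged 0.421 ± 0.296, 2.53 ± 0.548, 0.970 ± 0.607 and 0.941 ± 0.211 CPM in the same order, with overlap between WT IgG and A159V IgG.

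Among the myeloid genes, Itgam and Tyrobp were scarce. Itgam had 3, 3 and 5 counts in WT cells under IgG, 27, 15 and 17 in WT cells under anti-PD1, 0, 2 and 1 in A159V cells under IgG and 1, 1 and 0 in A159V cells under anti-PD1. Only WT anti-PD1 exceeded 3 counts in each library, with 1.12 ± 0.245 CPM. Itgam shares 3450 bp of exon with the gene model Gm49368, and how the counting treated such reads was not given in the sources used here. Tyrobp had 13, 1 and 18 counts in WT cells under IgG, 19, 14 and 22 in WT cells under anti-PD1, 0, 2 and 4 in A159V cells under IgG and 4, 2 and 3 in A159V cells under anti-PD1. The WT IgG libraries differed widely, and replicate 2 lay at the level of A159V.

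Cd68, the lysosomal glycoprotein of macrophages, had far more reads than any other member. It averaged 23.2 ± 2.80 CPM in WT cells under IgG, 34.6 ± 7.86 in WT cells under anti-PD1, 40.7 ± 8.45 in A159V cells under IgG and 36.9 ± 2.72 in A159V cells under anti-PD1. Its counts were 444, 414 and 399 in WT cells under IgG, 722, 608 and 463 in WT cells under anti-PD1, 727, 700 and 942 in A159V cells under IgG and 628, 694 and 713 in A159V cells under anti-PD1. WT IgG was the lowest group, and its 3 libraries did not overlap with any other group after scaling. The gap to WT anti-PD1 was small, with 25.3 CPM in WT IgG replicate 2 and 25.8 in WT anti-PD1 replicate 3. Lyz2, a lysozyme of macrophages and granulocytes, had 80, 59 and 77 counts in WT cells under IgG, 138, 54 and 72 in WT cells under anti-PD1, 134, 97 and 122 in A159V cells under IgG and 123, 137 and 87 in A159V cells under anti-PD1. Its means were 3.95 ± 0.388, 4.92 ± 1.93, 6.08 ± 1.26 and 6.27 ± 1.28 CPM in that order, and WT anti-PD1 replicate 1 stood above the other WT libraries. The close paralog Lyz1 had at most 4 counts in any sample.

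Csf1r had 3, 1 and 9 counts in WT cells under IgG, 7, 4 and 8 in WT cells under anti-PD1, 7, 5 and 5 in A159V cells under IgG and 7, 2 and 5 in A159V cells under anti-PD1. All 4 groups overlapped, and none of the 4 ratios of summed counts between groups had a 95% counting interval that left out 1. For A159V IgG over WT IgG the ratio was 1.22 (exact interval 0.558 to 2.73), and for WT anti-PD1 over WT IgG it was 1.53 (0.716 to 3.37). Csf1r also shares 873 bp of exon with the antisense gene Hmgxb3, which had 11823 counts over all samples, so even these few reads are uncertain. Adgre1 had 2, 1 and 2 counts in WT cells under IgG, 2, 2 and 2 in WT cells under anti-PD1, 0, 0 and 1 in A159V cells under IgG and 1, 0 and 0 in A159V cells under anti-PD1. Because no library exceeded the floor of 3 counts, no fold is given for Adgre1.

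**Figure D1:**
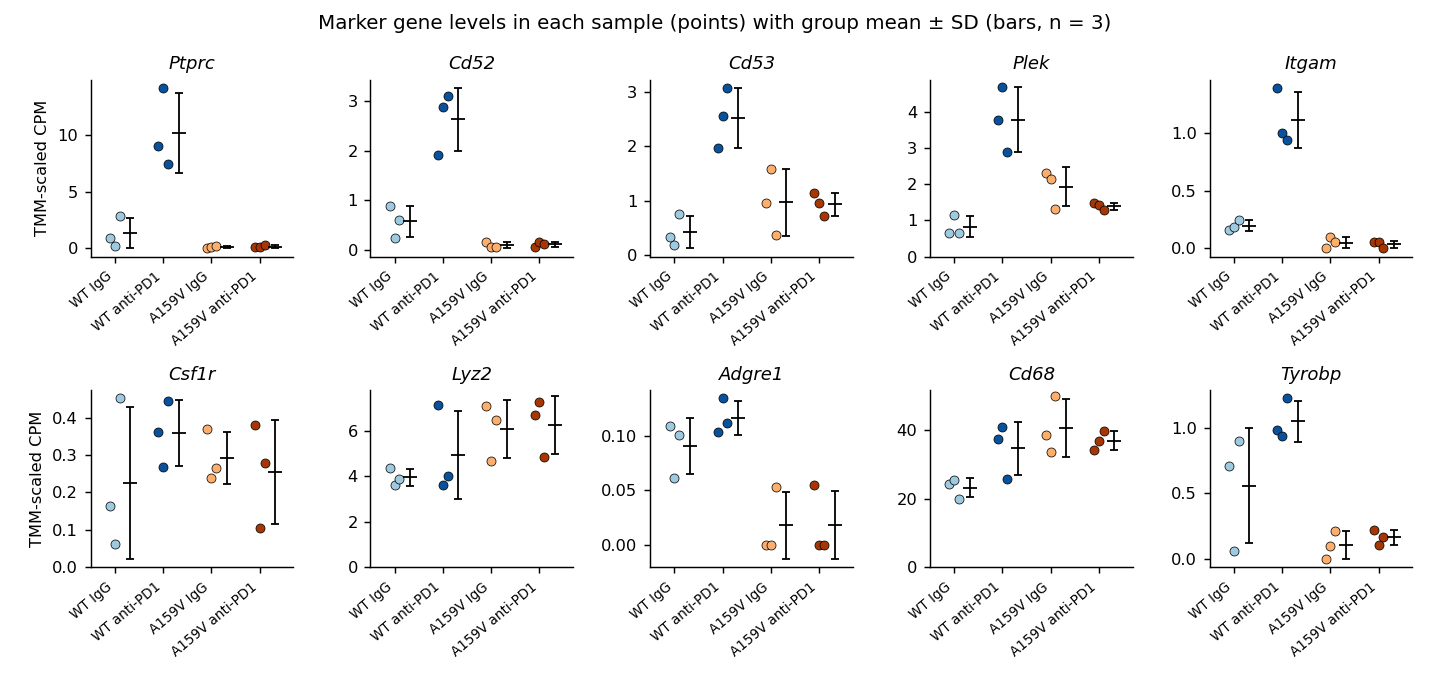
TMM-scaled CPM (y axis, a separate scale for each gene) of the 10 marker genes in the 12 samples, with points for mice and bars for the group mean ± SD (n = 3). Ptprc, Cd52 and Itgam were near 0 in both A159V groups and highest in WT anti-PD1, whereas Cd68 averaged 34.6 to 40.7 CPM in these 3 groups.

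To compare levels between genes, CPM was divided by the length of the longest coding transcript in kb. On this scale Cd68 was the highest member in every group, from 18.9 CPM per kb in WT IgG to 33.1 in A159V IgG. Lyz2 followed in WT IgG with 3.00 CPM per kb and in both A159V groups with 4.62 and 4.77, and Cd52 ranked second in WT anti-PD1 with 5.13 against 3.74 for Lyz2. At the other end in WT IgG were Csf1r at 0.0480 CPM per kb, Itgam at 0.0426 and Adgre1 at 0.0279. In WT anti-PD1 Csf1r and Adgre1 were the lowest, at 0.0763 and 0.0359 CPM per kb, while Itgam reached 0.238. In A159V IgG Ptprc reached 0.0203 CPM per kb against 0.557 for Cd53 and 0.473 for Plek, although the 3 genes lay between 0.201 and 0.258 in WT IgG. Csf1r, Itgam and Adgre1 are at or near the floor in most libraries, so their order in WT and A159V cells under IgG is not resolved. In WT IgG the neighbours Cd52 and Tyrobp, and Ptprc, Cd53 and Plek, also lay within their spread between samples.

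**Figure D2:**
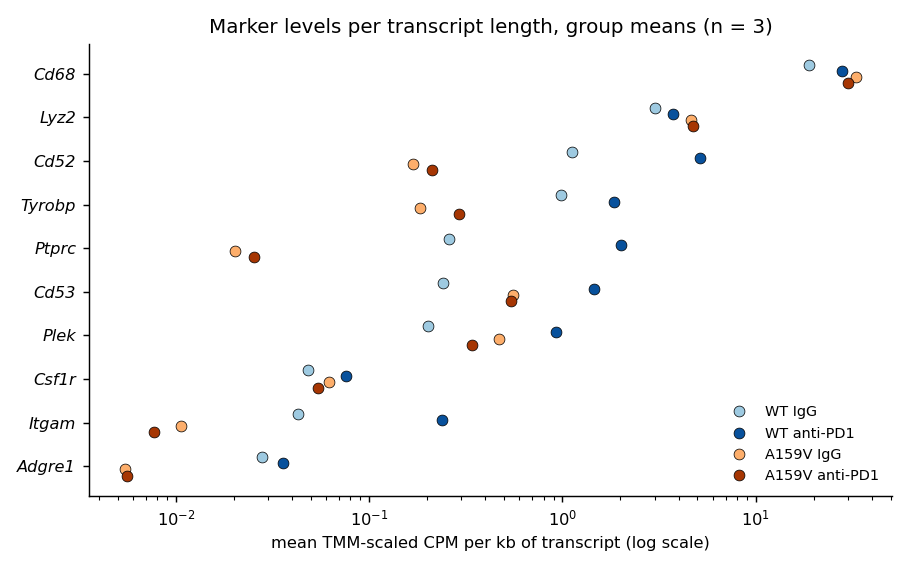
Mean TMM-scaled CPM per kb of transcript (x axis, log scale) for each marker gene (y axis, ordered by WT IgG), with 1 point per group (n = 3 samples). Cd68 led in every group, and the A159V points of Ptprc, Cd52, Tyrobp and Itgam lay to the left of WT IgG while those of Cd53 and Plek lay to its right.

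Summed over the 10 genes, the level was 31.4 ± 1.10 CPM in WT cells under IgG, 61.4 ± 11.2 in WT cells under anti-PD1, 50.3 ± 8.29 in A159V cells under IgG and 46.2 ± 1.65 in A159V cells under anti-PD1. Cd68 held between 52.6% and 84.7% of the member counts of a sample. The sum did not follow Cd68 alone. It was highest in WT anti-PD1, whereas Cd68 averaged 34.6 CPM there and 40.7 in A159V IgG. Without Cd68 and Lyz2 the other 8 genes summed to 4.20 ± 2.20 CPM in WT cells under IgG, 21.8 ± 4.21 in WT cells under anti-PD1, 3.56 ± 0.911 in A159V cells under IgG and 3.05 ± 0.335 in A159V cells under anti-PD1. The order of WT IgG and A159V therefore depended on these 2 genes, since the A159V groups were above WT IgG with them and no longer above it without them. For Ptprc, Itgam, Cd52 and Tyrobp alone the sums were 2.64 ± 1.95, 15.0 ± 3.48, 0.342 ± 0.186 and 0.437 ± 0.104 CPM in the same order. Sums are given as a description, with no test.

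**Figure D3:**
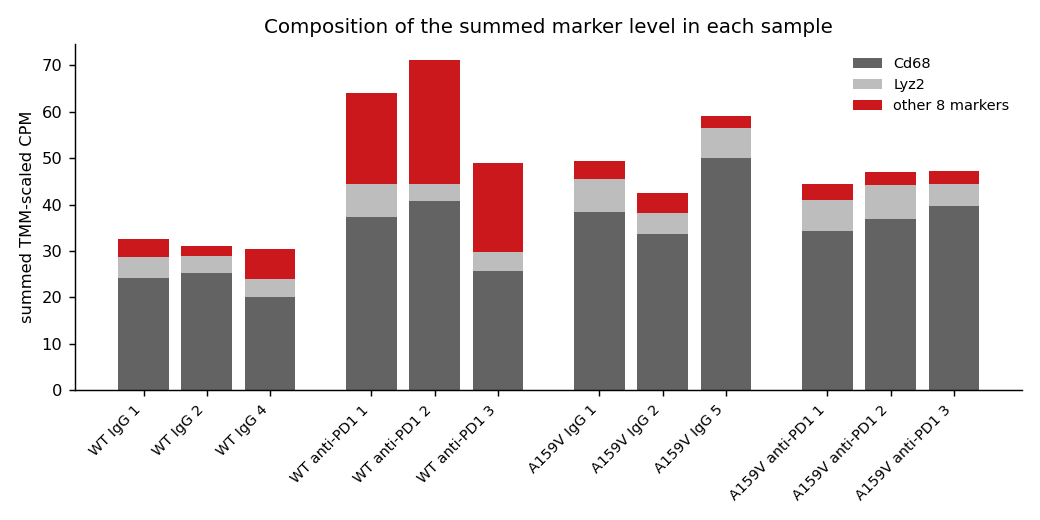
Summed TMM-scaled CPM of the marker genes (y axis) in each of the 12 samples (x axis), stacked as Cd68, Lyz2 and the other 8 genes. Cd68 made up most of each bar, and the other 8 genes were a large share only in the WT anti-PD1 samples.

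RefSeq (GRCm38.p6) gave promoters for 6 of the members, Ptprc, Itgam, Cd53, Plek, Lyz2 and Cd68. The 250 bases before the start site are shown for 3 genes that rose with anti-PD1 in WT cells (Itgam, Cd53 and Plek) and for the 2 genes that lay well above the floor in every library (Lyz2 and Cd68). Capitals mark GAGGAA, the core of the box bound by the myeloid factor PU.1, or its reverse complement TTCCTC, and GGAAGT, a core of the wider Ets family, or its reverse complement ACTTCC. The sequences run 5′ to 3′ on the strand of the gene.
Itgam (chr7:128062390-128062639, plus strand): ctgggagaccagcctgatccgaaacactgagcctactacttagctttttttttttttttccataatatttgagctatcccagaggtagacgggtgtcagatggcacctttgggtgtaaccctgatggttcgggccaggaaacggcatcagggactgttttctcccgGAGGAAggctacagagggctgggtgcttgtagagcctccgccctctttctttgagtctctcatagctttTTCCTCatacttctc
Cd53 (chr3:106790150-106790399, minus strand): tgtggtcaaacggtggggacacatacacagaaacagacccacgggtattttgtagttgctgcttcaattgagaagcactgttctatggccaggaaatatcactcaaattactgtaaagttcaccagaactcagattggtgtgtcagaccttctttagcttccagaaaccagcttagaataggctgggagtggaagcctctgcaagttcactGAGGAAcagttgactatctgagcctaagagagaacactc
Plek (chr11:17008719-17008968, minus strand): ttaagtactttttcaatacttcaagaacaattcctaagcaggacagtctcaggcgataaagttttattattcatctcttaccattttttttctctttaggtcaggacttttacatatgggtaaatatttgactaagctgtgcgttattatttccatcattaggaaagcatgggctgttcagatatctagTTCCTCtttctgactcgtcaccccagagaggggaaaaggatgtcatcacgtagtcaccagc
Lyz2 (chr10:117282273-117282522, minus strand): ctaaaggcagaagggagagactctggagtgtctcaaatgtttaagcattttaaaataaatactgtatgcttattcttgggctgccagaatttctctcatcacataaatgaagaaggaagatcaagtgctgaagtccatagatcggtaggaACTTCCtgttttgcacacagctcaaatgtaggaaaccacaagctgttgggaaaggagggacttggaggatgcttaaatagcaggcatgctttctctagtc
Cd68 (chr11:69666171-69666420, minus strand): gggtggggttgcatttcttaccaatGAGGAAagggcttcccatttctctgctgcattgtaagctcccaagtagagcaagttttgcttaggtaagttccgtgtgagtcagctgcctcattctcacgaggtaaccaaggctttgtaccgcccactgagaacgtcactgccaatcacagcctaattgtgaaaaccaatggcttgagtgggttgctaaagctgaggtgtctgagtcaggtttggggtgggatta
GAGGAA was found on either strand in 5 of the 7 promoters of the 6 members, and in 23.3% of all 32851 promoters cut to the same length. Ptprc held it 158 bases before 1 of its 2 start sites, Itgam at 84 and 15 bases before the start, Cd53 at 39, Plek at 61 and Cd68 at 225, counted to the first base of the match. GGAAGT was found in 3 of the 7, in Lyz2, where it begins 100 bases before the start, and at both Ptprc start sites, whose windows overlap and share 1 match, against 19.7% of all promoters. GAGGAA and GGAAGT overlap by GGAA, and no stretch of these windows holds both as 1 run. The motif GAGGAA was thus present both in genes that were near 0 in A159V cells (Itgam) and in the gene that was highest there (Cd68). The match of letters is a description, and no binding was measured.

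The comparison of A159V IgG with WT IgG asks how marker RNA differed by genotype under the control antibody. Ptprc, Cd52 and Tyrobp were lower in A159V cells, whereas Plek and Cd68 were higher. These 5 members passed the test (log2 fold change beyond 0.3 in either direction, with adjusted p below 0.05), against 15.6% of the 14340 genes tested that were called higher and 12.4% that were called lower. Ptprc fell by 3.62 ± 0.947 (SE) on the log2 scale (edgeR adjusted p = 0.0143), and its summed counts were 13.6-fold lower (exact 95% counting interval 5.96 to 38.2). WT IgG replicate 2 lay below A159V IgG replicate 5 for Ptprc, so the groups overlapped. Cd52 fell by 2.67 ± 0.625 (edgeR adjusted p = 0.00818) and Tyrobp by 2.40 ± 0.818 (edgeR adjusted p = 0.0437). Plek rose by 1.24 ± 0.335 (edgeR adjusted p = 0.0162) and Cd68 by 0.81 ± 0.190 (edgeR adjusted p = 0.00826). In both cases the groups did not overlap, but the share of all genes without overlap was not counted. The other 3 tested members did not pass, with log2 fold changes of -1.84 for Itgam, 1.16 for Cd53 and 0.62 for Lyz2. Over the 8 members tested the median log2 fold change was -0.61, beside 0.02 over all genes tested. It lies between Itgam and Lyz2, which have opposite signs, and describes no shared direction. The genes with negative values, Ptprc, Cd52, Tyrobp and Itgam, passed the filter on low counts only in fits that held WT anti-PD1.

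Single libraries and the choice of model bear on several of these calls. Ptprc did not pass without WT IgG replicate 4 or without A159V IgG replicate 1, and Plek did not pass without WT IgG replicate 1 or A159V IgG replicates 1 or 2 (edgeR adjusted p of Plek over the samples left out 0.0090 to 0.0592). The log2 fold change of Ptprc ran from -4.63 to -2.39 over the 6 fits that left out a sample, and that of Tyrobp from -3.42 to -1.86. Tyrobp passed in 2 of these 6 fits, and Cd52 and Cd68 in all 6. With voom, Ptprc (limma adjusted p = 0.0563) and Tyrobp did not pass. With the trend on exon length removed Tyrobp did not pass and Lyz2 did, and the edgeR, DESeq2 or limma adjusted p of Tyrobp ranged from 0.0251 to 0.110 over the settings tried. With the 2 groups alone in the fit, 4 members passed the filter on low counts (Cd68, Plek, Cd53 and Lyz2). None of them passed the test, with the lowest edgeR adjusted p at 0.0652 for Cd68. Ptprc, Cd52, Tyrobp and Itgam could not be tested there, so the lower calls rest on fits that also hold WT anti-PD1. The 6 fits that left out a sample all kept that group.

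The comparison of the genotypes under anti-PD1 gave 6 lower calls. Ptprc, Itgam, Cd52, Tyrobp, Plek and Cd53 were lower in A159V than in WT, and none of the 8 members tested was called higher, against 10.2% of all genes called lower and 11.2% called higher. Ptprc, Itgam, Cd52 and Tyrobp passed the filter on low counts only in fits that held WT anti-PD1, the higher group here. The filter thus largely set their direction, and the number of calls is a description only. Ptprc fell by 6.25 ± 0.842 on the log2 scale (edgeR adjusted p = 0.000357), with 7 summed counts in A159V and 520 in WT. Itgam fell by 4.71 ± 0.642 (edgeR adjusted p = 0.000386) and Cd52 by 4.51 ± 0.539 (edgeR adjusted p = 0.000168). With 2 summed counts of Itgam in A159V, the ratio of WT to A159V was 31.2 with an exact counting interval of 8.25 to 263. Tyrobp fell by 2.64 ± 0.724 (edgeR adjusted p = 0.0211), Plek by 1.43 ± 0.311 (edgeR adjusted p = 0.00626) and Cd53 by 1.41 ± 0.475 (edgeR adjusted p = 0.0495). Scaled values of the 6 genes did not overlap between the groups, but the share of all genes without overlap was not counted, so this is a description.

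Cd68 and Lyz2 had log2 fold changes of 0.09 (95% interval -0.31 to 0.50) and 0.34 (-0.25 to 0.93) in the same comparison, and their samples overlapped. The direction of Cd68 turned under upper-quartile scaling, to a value of -0.0020. The median over the members tested was -2.03, beside 0.06 over all genes, and like the number of calls it is a description only. Cd53 lost its call in each of the 6 fits without a sample, with edgeR adjusted p of 0.0697 to 0.172, and Tyrobp lost it in 4 of them, without WT anti-PD1 replicate 3 or any 1 of the A159V anti-PD1 replicates. Ptprc, Itgam, Cd52 and Plek passed in all 6, and all 6 genes passed with the 2 groups alone in the fit.

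In WT cells the treatment comparison asks whether marker RNA differed between anti-PD1 and IgG. Itgam, Cd52, Cd53 and Plek rose with anti-PD1. They were 4 of the 8 members tested, against 0.495% of all genes called higher and 0.132% called lower. Itgam and Cd52, like Ptprc and Tyrobp, passed the filter on low counts only in fits that held WT anti-PD1. Because that is the group found higher, the share of members called is a description and not support for a rise of the set. Plek rose by 2.20 ± 0.330 on the log2 scale (edgeR adjusted p = 0.0166) and ranked 11 by p among all genes. Cd53 rose by 2.53 ± 0.520 (edgeR adjusted p = 0.0492), Itgam by 2.44 ± 0.487 (edgeR adjusted p = 0.0439) and Cd52 by 2.17 ± 0.425 (edgeR adjusted p = 0.0410). Ptprc had a larger log2 fold change, 2.92 ± 0.624, and did not pass (edgeR adjusted p = 0.0544), although its 3 anti-PD1 values all lay above the 3 IgG values. The summed Ptprc counts differed 7.15-fold (exact counting interval 5.61 to 9.23), an interval that does not hold the spread between mice. Cd68 had a log2 fold change of 0.58 (edgeR adjusted p = 0.0996), Tyrobp of 0.87 (edgeR adjusted p = 0.358) and Lyz2 of 0.32 (edgeR adjusted p = 0.458). The median over the members tested was 2.19, beside 0.01 over all genes, and it is likewise a description. DESeq2 gave no adjusted p for Itgam, and DESeq2, voom and the fit with no filter called Ptprc.

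The number of members called in WT cells depended on single libraries. No member passed without WT IgG replicate 1, WT anti-PD1 replicate 1 or WT anti-PD1 replicate 2, and Plek alone passed without WT IgG replicate 2 or WT anti-PD1 replicate 3. Without WT IgG replicate 4, the IgG library with the most Ptprc, 5 members passed, and Ptprc was among them with a log2 fold change of 4.15 (edgeR adjusted p = 0.00825). With the 2 groups alone in the fit no member passed, at a lowest edgeR adjusted p of 0.0825. The fold changes themselves stayed positive for the 4 genes in each of these fits, and that of Plek ranged from 2.02 to 2.51 over the samples left out.

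In A159V cells no member passed the test between anti-PD1 and IgG, and 0 of the 8 had an unadjusted p under 0.05 in edgeR, with 0 called by DESeq2 and 0 by voom. Over all genes 0% were called. The log2 fold change was -0.47 (95% interval -1.16 to 0.21) for Plek, -0.14 (-0.55 to 0.27) for Cd68 and 0.05 (-0.53 to 0.63) for Lyz2. For the scarce genes the interval is wide, since the summed counts were 6 and 7 for Ptprc, 3 and 2 for Itgam, 5 and 6 for Cd52 and 6 and 9 for Tyrobp under IgG and anti-PD1. The ratio of Ptprc under anti-PD1 to IgG was 1.24, with an exact counting interval of 0.356 to 4.46. The fitted log2 fold change of Ptprc had a 95% interval of -2.66 to 3.25, which holds the 2.92 seen in WT cells, so a difference of that size was not excluded at this depth. The median over the members tested was -0.0019, beside 0.0046 over all genes.

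The interaction, the response in A159V minus the response in WT, tests whether the treatment effect differed by genotype. No member passed it in edgeR, where 0.00697% of all genes, a single gene, was called. Among the members 4 had an unadjusted p under 0.05 (Itgam, Cd53, Plek and Cd68), DESeq2 called 2 and voom called 0. Plek ranked 4 of 14340 genes by p, with an interaction of -2.68 ± 0.457 on the log2 scale (edgeR adjusted p = 0.0901), and Cd53 ranked 269, at -2.58 ± 0.722 (edgeR adjusted p = 0.178). The interaction was -2.87 for Itgam, -2.63 for Ptprc, -1.85 for Cd52 and -0.72 for Cd68. Plek and Cd53 were the 2 genes that DESeq2 called, and both also passed without WT IgG replicate 4.

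**Figure D4:**
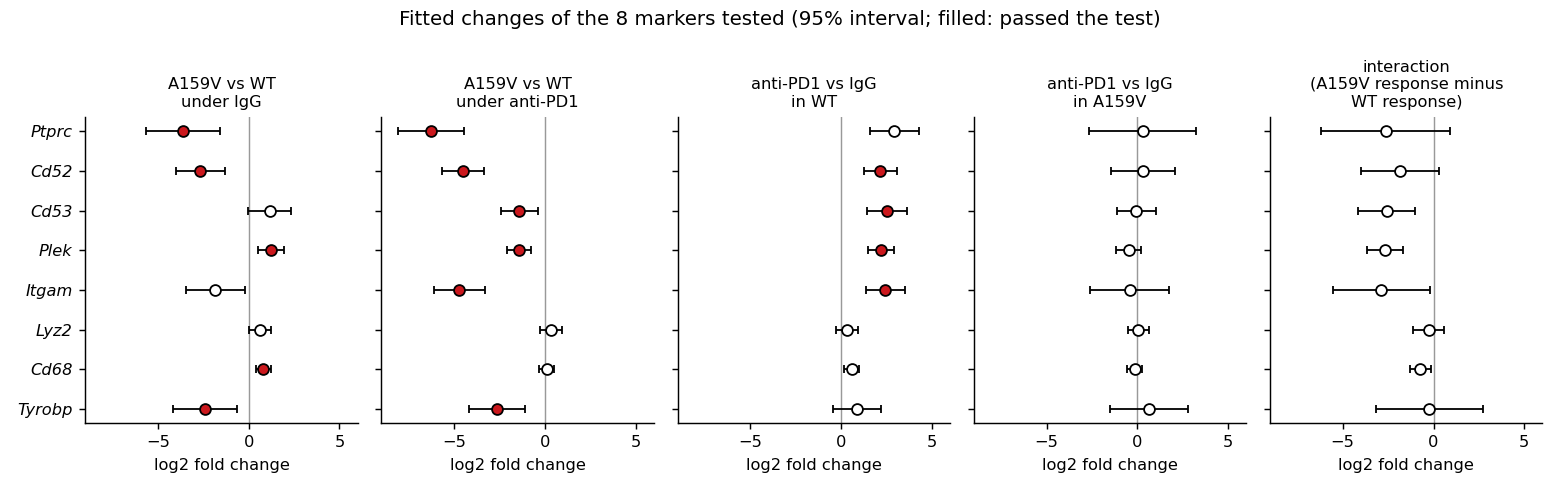
Fitted log2 fold changes (x axis) with 95% intervals for the 8 marker genes tested (y axis) in the 5 comparisons, filled where the gene passed the test. Ptprc, Cd52 and Tyrobp were lower in A159V under both antibodies, Plek had opposite signs in the genotype comparisons, and no gene passed in A159V cells or in the interaction.

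Other genes of the Csf1r axis were measured as a list of 12 genes in the table, of which 9 were tested. The ligands were lower in A159V cells: Csf1 was at 148 CPM in WT IgG and 105 in A159V IgG (log2 fold change -0.50, edgeR adjusted p = 0.024), and Il34, the alternative ligand, at 27.5 and 6.57 CPM (-2.06, edgeR adjusted p = 3.1e-05). Csf2 and Kitl, growth factors of myeloid and mast cells, were also lower under IgG, at -1.85 and -1.58. In all 4 genes were called lower and 0 higher in this comparison, beside 12.4% of all genes called lower and 15.6% called higher. Under anti-PD1 7 were lower, beside 10.2% of all genes. Among them were Irf8, a factor of monocyte and dendritic cell development, at -1.71, and Inpp5d, the phosphatase SHIP1, at -3.16. Csf2rb, also called lower there, had 26, 18 and 21 counts in WT anti-PD1 and at most 15 in any other library. Genes scarce outside WT anti-PD1 could pass the filter through it, so the numbers of calls are a description. Irf8 was also the 1 gene of the list that rose with anti-PD1 in WT cells, by 1.85 (edgeR adjusted p = 0.030). Spi1, which encodes PU.1 and drives the myeloid genes, had 5 to 14 counts in every library and was not tested.

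The receptors and kinases that work with Tyrobp were mostly scarce, and 7 of 16 were tested. Klrk1, the NKG2D receptor of natural killer and T cells, and Fcer1g, a sister adaptor, were lower in A159V IgG than in WT IgG, at -4.01 and -1.60, and again under anti-PD1, at -6.15 and -2.42. Syk, the kinase downstream of these adaptors, was higher in A159V IgG at 1.16 (edgeR adjusted p = 0.0012). Plcg2 and Fgr were lower in A159V only under anti-PD1 by their own tests, at -0.67 and -2.65, and the difference between the antibodies did not pass the interaction for either (edgeR adjusted p = 0.26 and 0.29). None of the 7 passed between anti-PD1 and IgG in WT or in A159V.

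Other monocyte and macrophage genes were compared with the members as a list of 27, of which 15 were tested. Of these 9 were lower and 0 higher in A159V IgG than in WT IgG, among them Ccr2, the receptor that draws monocytes into tissue (-3.37), Fcgr1 and Fcgr3, Fc receptors (-2.29 and -1.71), Itgb2, the beta chain that pairs with CD11b (-1.31), and Mertk, a receptor for dying cells (-0.90). Under anti-PD1 7 were lower, including Ccr2 (-4.87), Fcgr1 (-3.50), Cd163, a scavenger receptor (-3.12), and Itgb2 (-2.01). Over all genes 12.4% were called lower under IgG and 10.2% under anti-PD1. Ccr2 and Fcgr1 had at most 2 counts in any A159V library and were highest in WT anti-PD1. Genes this scarce could pass the filter through that group, so the numbers of calls in this list are a description and not support. None passed between anti-PD1 and IgG in WT cells, with a median of 0.38 over the 15. The genes with the highest levels in this list were Nos2, Cd74, Mertk and Cd14, at 90.6, 98.2, 17.5 and 15.5 CPM in WT IgG. Cd14 and Nos2 were not called in any comparison, and like Cd68 they were plentiful in A159V libraries, at 14.8 and 121 CPM under IgG. The complement genes C1qa, C1qb and C1qc, abundant in tissue macrophages, did not exceed 18 counts in any library.

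Markers of T and natural killer cells also rose with anti-PD1 in WT cells. Of the 20 genes listed, 12 were tested, and 5 rose with anti-PD1 in WT (Cd3g, Trac, Cd8a, Nkg7 and Il2rb), beside 0.495% of all genes called higher. Cd8a, the CD8 coreceptor, had 6, 0 and 1 counts in WT IgG and 33, 85 and 36 in WT anti-PD1 (log2 fold change 4.53, edgeR adjusted p = 0.030). Gzmb, a cytotoxic granule protease, had 28, 2 and 76 counts in WT IgG, in the same order of replicates as the 17, 3 and 56 of Ptprc, and 203, 242 and 194 in WT anti-PD1. All 12 were lower in A159V than in WT under anti-PD1, with a median of -4.92, beside 10.2% of all genes called lower. Under IgG 4 were lower, beside 12.4% of all genes. Cd3g, Trac and Cd8a did not exceed 6 counts outside WT anti-PD1, so they entered the test through that group. The numbers of calls in this list are therefore a description and not support. The summed level of the 20 genes was 32.7 to 99.3 CPM in WT cells under IgG, 67.1 to 94.5 in WT cells under anti-PD1, 18.4 to 19.9 in A159V cells under IgG and 15.1 to 16.9 in A159V cells under anti-PD1. The chemokine gene Ccl5 alone averaged 51.3 ± 35.6 CPM in WT IgG and 32.1 ± 1.76 in WT anti-PD1. Its WT IgG mean was raised by replicate 1 at 92.4 CPM, and the change was not called (edgeR adjusted p = 0.201). Since Ptprc, Cd52, Cd53 and Itgam are also transcribed in T or natural killer cells, these genes do not tell myeloid from lymphoid RNA here, and the part of either was not tested.

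Genes common to blood cells had genotype calls in both directions under both antibodies, as the members did under IgG only. Of 22 listed, 20 were tested. In A159V IgG 7 were higher than in WT IgG, with Lcp1, an actin-bundling protein, at 3.38, Vav1, an exchange factor for RAC proteins, at 1.93, and Arhgdib at 1.73, followed by Itgal, Cd37, Rac2 and Nckap1l. In the other direction 4 were lower, Evi2a (-3.82), Lsp1 (-2.69), Selplg (-2.29) and Coro1a (-1.39). Over all genes 15.6% were called higher and 12.4% lower in this comparison. Under anti-PD1 3 were higher (Arhgdib, Lcp1 and Vav1) and 9 lower in A159V, with Selplg, the P-selectin ligand, at -6.53. The shares over all genes were 11.2% higher and 10.2% lower there. Calls in both directions are therefore not particular to this list, and their numbers are a description. Lcp1, Itgal and Selplg rose with anti-PD1 in WT cells, by 1.82, 0.98 and 2.68. Lcp1 averaged 3.62 CPM in WT IgG and 37.9 in A159V IgG, a difference with the sign of Plek and Cd68 and opposite to Ptprc.

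The remaining marker lists gave values beside the members. Of the 10 dendritic cell genes 6 were tested, and Clec9a and Ccr7 were lower in A159V under both antibodies, with Itgax higher in A159V IgG (0.85). Mmp9, the 1 neutrophil-list gene called, was lower in A159V by 2.51 under IgG and 3.21 under anti-PD1, and its level of 46.6 CPM in WT IgG stood against 0.425 CPM of S100a8. Of the B cell genes, Ms4a1 was at 0 in every library, Cd79b was higher and Ighm lower in A159V under both antibodies, and Pax5 was higher under IgG. The mast cell genes Cpa3, Mcpt4 and Fcer1a were at 0 in every library. Of the fibroblast genes 6 of 8 were called lower in A159V under IgG and 5 of 8 under anti-PD1, beside 12.4% and 10.2% of all genes. Col3a1 was at 358 CPM in WT IgG and 56.6 in A159V IgG. Pdgfra under IgG (0.62) and Postn under anti-PD1 (0.45) had the opposite sign and were not called. Among endothelial genes Tie1 was higher in A159V IgG, and Pecam1 and Cdh5 were lower in A159V anti-PD1. The hemoglobin genes Hba-a1 and Hba-a2 were lower in A159V under both antibodies, by 1.27 and 1.15 under IgG. Of the 12 epithelial genes 4 were tested: Cldn4 was higher in A159V under both antibodies, Lgals4 lower under IgG and Cdh1 lower under anti-PD1, and Epcam and Krt8, defining genes of epithelium, did not exceed 2 and 13 counts in any library. None of these lists had a gene that passed between anti-PD1 and IgG. What RNA of other host cells contributed to the members was not tested.

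The genes whose pattern was most like the mean of the members were found by Pearson's r over the 12 samples. It was taken between log2 CPM and the mean log2 CPM of the 8 members tested. The members were not standardized, so those with a wide range, such as Ptprc, weighed more in this mean than Cd68 and Lyz2. The 10 highest were P2ry10, Itga4, Sh2d2a, Laptm5, Ms4a4b, Trbc2, Sema6d, Nup210, Gimap8 and Gimap3, with r from 0.985 down to 0.969. P2ry10, a lysophospholipid receptor of lymphocytes, averaged 0.192 CPM in WT IgG and 2.36 in WT anti-PD1 and had 0 counts in all A159V libraries. Trbc2, a constant segment of the T cell receptor, averaged 0.194 and 1.55 CPM in the WT groups and was also at 0 in A159V. Laptm5, a lysosomal protein of blood cells, was the most abundant of the 10, at 4.43 CPM in WT cells under IgG, 12.4 in WT cells under anti-PD1, 2.63 in A159V cells under IgG and 2.75 in A159V cells under anti-PD1. Cd8a ranked 18 and Itgb2 ranked 202 by this measure. With Spearman's rank correlation in place of Pearson's r, 1 of the 10 genes remained among the highest 10. The samples share their groups and depth, so these values describe the 12 libraries only.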

How the data were processed

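Per the methods, paired 100 bp reads were aligned by STAR to mm10 and counted on genes by summarizeOverlaps, and the authors deposited the raw counts for 12 samples. The strand and counting settings are not given in the sources used here. The 12 columns matched the sample labels, which gave groups and replicate numbers. Each sample was treated as a separate mouse.

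Symbols, positions and transcript lengths came from GENCODE M21, and 32064 of 33219 features matched. The members and the other gene lists were chosen with earlier results of these data known. Counts were analyzed in edgeR 4.0.16 (R 4.3.3). Genes were kept by filterByExpr, libraries were scaled by TMM, and a quasi-likelihood model of the 4 groups with 8 residual degrees of freedom was fitted to 14340 genes. Genes scarce elsewhere could pass the filter through a single group, so counts of listed genes called are descriptions. Benjamini-Hochberg adjustment covered all genes tested. The fold limit of 0.3 follows the paper. Values are CPM ± SD, and log2 CPM used a prior count of 2. Ratios of summed counts carry exact (Clopper-Pearson) 95% intervals, which cover counting error only. Replicates of a group differed by more than sampling noise. The alternatives covered scaling, filter, DESeq2 1.42.0 (the authors' tool), voom in limma 3.58.1, thresholds, samples in the fit, the replicate number, exon length and each sample left out. The genes named are the 10 members, the listed genes that passed the test or had the highest levels, and the 10 genes most like the mean of the members. Genes of the lists named for counts near 0 were chosen after their values were seen.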

Additional observations from a re-analysis of the deposited data

How the results depend on the processing

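Of 668 refits with an adjusted p of the 40 log2 fold changes of members, 581 kept direction and call, 48 lost a call, 17 gained one and 22 turned in direction, each for a change that was not called. Members called in A159V IgG versus WT IgG were 3 with voom, 0 with only the 2 groups in the fit, where 4 members passed the filter, and 2 to 6 without 1 sample. In WT anti-PD1 versus WT IgG they were 0 with the 2 groups alone and 0 to 5 without 1 sample. Under anti-PD1 the genotype comparison gave 4 to 5 without 1 sample. The interaction had 1 member called with no filter on low counts, 2 with DESeq2 and 0 to 2 without 1 sample. In A159V anti-PD1 versus IgG every setting gave 0. Apart from the filter in the fit of 2 groups, the cause was not tested.

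The summed member level under upper-quartile normalization was 33.2 CPM in WT IgG and 44.4 in A159V anti-PD1. Directions turned for Cd68 between genotypes under anti-PD1 (-0.0020 with upper-quartile normalization, -0.078 without WT anti-PD1 replicate 3, in a range up to 0.228), for Cd68 in A159V (0.065 without A159V IgG replicate 5, in a range from -0.262) and for Lyz2 in A159V (-0.060 with the exon length trend removed, -0.113 to 0.201 without 1 sample) and in WT (-0.050 without WT anti-PD1 replicate 1, in a range up to 0.497). In A159V anti-PD1 versus IgG they also turned without 1 sample for Cd52 (-0.049 to 1.01), Ptprc (-0.854 to 1.26), Itgam (-0.937 to 0.368) and Cd53 (-0.400 to 0.503, and 0.137 with voom), and in the interaction for Tyrobp (-0.773 to 0.747) and Lyz2 (-0.450 to 0.097).

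The replicate numbers shared only a number: over 13 same-numbered pairs the correlation of deviations ran from -0.178 to 0.205, and over 41 other pairs from -0.224 to 0.229. With the replicate block, which absorbs WT IgG replicate 4 and A159V IgG replicate 5, members called were 5, 6, 6, 0 and 2 in the order of the report, with Tyrobp lost and Cd53 gained in the first, Ptprc and Cd68 gained in the third and Plek and Cd53 gained in the last. Cd68 and Cd52 in A159V turned to 0.109 and -0.0019, and the interaction of Tyrobp to 0.035. The count over all genes in WT anti-PD1 versus WT IgG moved from 90 to 4650 with the block.

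Over all genes, the 90 became 771 with no filter, 1478 with DESeq2, 188 with voom, 150 with the exon length trend removed, 0 with the 2 groups alone and 1 to 3458 without 1 sample. The 4010 in A159V IgG versus WT IgG became 1399 with the 2 groups alone and 2578 to 4717 without 1 sample. The 3075 under anti-PD1 became 5320 with the 2 groups alone, 5018 with the block and 1519 to 2171 without 1 sample. In A159V, DESeq2 called 2 genes against 0. The 1 gene of the interaction became 0 with upper-quartile normalization, 37 with no filter, 295 with DESeq2, 2760 with the block and 0 to 1182 without 1 sample. Depth limited Ptprc, Itgam, Cd52 and Tyrobp in A159V and Csf1r and Adgre1 in every group, where libraries lay at or near 3 counts.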
